A study of Homo sapiens with 12 samples.

Results

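The 10 genes with large rises under dasatinib described here, which have no place in the usual lists of erythroid genes, were measured in K562, a human line from chronic myeloid leukaemia that is driven by the BCR-ABL1 fusion kinase. They are ESPN, ANO1, FAXDC2, GATA5, ZNF467, MYBPHL, GLRX, EFNA1, FZD2 and A4GALT, 10 of the 10208 genes tested on the arrays. They were selected on their normalized intensities in these same arrays, for large rises over DMSO, some from 4 h and some late, so their own changes are given as a description with no test. In all 14 probes carried 1 of these symbols, and 13 of them, covering all 10 genes, were detected on all 3 arrays of at least 1 group. Each of the 13 had a detection p of 0 on all 3 arrays of its best group, and the probe left out, a second one for EFNA1, reached 0.24 in its best group. Cells received 0.2% DMSO for 24 h, or 100 nM dasatinib, which blocks the kinase activity of ABL and of the SRC family, for 4 h, 8 h or 24 h, with 3 arrays (A, B and C) in each of the 4 groups. All groups were grown with 10% serum and treated in medium with 0.1% serum. The vehicle was harvested at 24 h alone, so the earlier comparisons mix dasatinib with a shorter stay in low-serum medium, and these cannot be told apart. K562 is a single line, and nothing in the labels says that replicate arrays came from separate cultures. The p-values therefore cover only the spread among these arrays, which may be technical.

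The 10 genes have little in common by known function. EFNA1 is a membrane-anchored ligand of EphA receptors and FZD2 is a seven-pass receptor for Wnt ligands, so both act at the cell surface in contact and growth signalling. GATA5 and ZNF467 are zinc-finger transcription factors, GATA5 being known from heart and endoderm development and ZNF467, in mouse, from the choice of marrow stromal cells between fat and bone. ESPN (espin) bundles actin filaments in microvilli and in the stereocilia of hair cells, and MYBPHL is a relative of the myosin-binding proteins found in heart muscle. ANO1 is a calcium-activated chloride channel. GLRX (glutaredoxin) removes glutathione from protein thiols, FAXDC2 belongs to the fatty acid hydroxylase family, and A4GALT makes the glycosphingolipid globotriaosylceramide, the Pk blood group antigen. K562 cells can be driven toward the erythroid lineage, where GATA1 is the leading GATA factor.

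The median deposited signal per array was 134 to 160, and 17175 to 18927 of 47314 probes were detected. The Pearson r between replicate arrays was 0.989 to 0.992 across genes, which are not independent replicates. All 9 of the 9 K562 markers with a probe were detected on all 12 arrays, and their summed signal was 54543 to 65413 after dasatinib for 24 h, against 38226 to 40969 in DMSO. Markers of other tissues were detected in part. Of 5 hair cell and neural markers none passed the detection filter, with MYO7A, ATOH1, POU4F3 and SNAP25 detected on 0 of 12 arrays and a summed signal of 610 to 703 after dasatinib for 24 h, against 608 to 708 in DMSO. Of 6 epithelial markers 3 passed, with EPCAM and KRT19 detected on 12 arrays, CDH1, KRT5 and KRT14 were detected on 0 arrays, and the summed signal was 4295 to 5702 at 24 h, against 5509 to 7928 in DMSO. The fibroblast sum (2 of 6 passed, COL3A1 and PDGFRA detected on 0 arrays, COL1A2 detected on 12 with a log2 fold change of -2.30 at 24 h) was 976 to 1105 at 24 h, against 1776 to 2406 in DMSO. In the lymphoid list only CD3D of 5 genes passed, on 12 arrays and with a log2 fold change of -3.35 at 24 h (adjusted p = 1.2e-09), CD3E and NKG7 being detected on 0 arrays, and the sum was 753 to 829 at 24 h, against 1519 to 1954 in DMSO. For monocytes and granulocytes 3 of 6 passed, MPO, ELANE and S100A8 were detected on 0 arrays, and the sum was 886 to 1019 at 24 h, against 1079 to 1197 in DMSO. For endothelium 1 of 4 passed, CDH5, VWF and KDR were detected on 0 arrays, and the sum was 490 to 555 at 24 h, against 489 to 570 in DMSO. The part of these marker levels in the results below was not tested. Fewer cells of a type and less RNA per cell cannot be told apart in such bulk samples.

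These 3 promoters are shown because they are the ones among the 10 genes that held any of the 8 motifs searched, here a GATA motif or a CACGTG E-box. The sequences are those of RefSeq on GRCh38.p14, 250 bases before to 50 after a start in its promoter table, on the gene's strand, with the motif in capitals. For ANO1 that start lies 19.9 kb inside the annotated gene (2.94 kb for ZNF467 and 0.431 kb for 1 of the A4GALT promoters, not shown), and for the others it is the gene's own start. MYBPHL lies at chr1:109306962-109307261 (minus strand) with AGATAA 220 bases before the start. ANO1 lies at chr11:69985657-69985956 (plus strand) with TGATAA 231 bases before it. FAXDC2 lies at chr5:154850554-154850853 (minus strand) with CACGTG 74 bases before it.
MYBPHL: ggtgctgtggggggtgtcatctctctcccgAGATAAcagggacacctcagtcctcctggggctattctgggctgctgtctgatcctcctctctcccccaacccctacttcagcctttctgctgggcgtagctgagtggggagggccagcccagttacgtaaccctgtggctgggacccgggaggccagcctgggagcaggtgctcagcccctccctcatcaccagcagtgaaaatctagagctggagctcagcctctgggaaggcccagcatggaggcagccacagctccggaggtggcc
ANO1: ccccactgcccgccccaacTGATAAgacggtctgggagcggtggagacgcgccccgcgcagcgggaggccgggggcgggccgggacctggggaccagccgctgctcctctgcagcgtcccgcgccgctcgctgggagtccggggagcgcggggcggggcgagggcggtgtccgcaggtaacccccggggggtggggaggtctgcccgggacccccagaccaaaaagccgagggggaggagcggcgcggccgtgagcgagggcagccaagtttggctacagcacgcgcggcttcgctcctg
FAXDC2: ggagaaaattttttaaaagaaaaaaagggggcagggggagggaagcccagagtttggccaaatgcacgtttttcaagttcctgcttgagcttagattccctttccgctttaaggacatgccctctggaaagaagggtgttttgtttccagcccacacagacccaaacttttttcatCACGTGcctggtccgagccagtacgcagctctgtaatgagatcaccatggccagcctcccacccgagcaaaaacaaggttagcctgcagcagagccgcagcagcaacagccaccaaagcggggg

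Promoters matched for 7 of the 10 genes, 8 promoters in all since A4GALT had 2, and none were found for ESPN, GATA5 and FZD2. The GATA motif was searched on both strands as AGATAA, as AGATAG, as TGATAA and as TGATAG and was in 2 of the 8, against 25% of 35116 promoters in the table. The E-box CACGTG, which reads the same on both strands, was in 1 of 8, against 7.26% of all. No match in these windows was found for the letters CCACACCC (CACCC box, 3.28% of all promoters), GTAAACA (FOXO, 3.42%), TTCNNNGAA (STAT, 7.66%), TGANTCA (AP-1, 7.71%), TGACGTCA (CRE, 1.85%) or CCGGAA (ETS core, 17.2%), each on both strands. The promoters ranged widely in base composition. The windows of ANO1, ZNF467 and EFNA1 were 76%, 75% and 71.7% GC, and those of A4GALT were 81% and 43.3%. GLRX and FAXDC2 had 47.7% and 51.7% GC, MYBPHL had 63.3%, and the median over all promoters was 58.7%. A motif match describes the letters only.

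Against the DMSO arrays, 6 of the 10 genes were at least 2-fold higher after 4 h of dasatinib, 8 after 8 h and 10 after 24 h. Without background correction the counts were 1, 7 and 6, and the authors' deposited table gave 0, 2 and 6. Over all genes tested the same was true (with correction) of 0.715%, 2.42% and 7.69%. Every dasatinib array lay above every DMSO array for 7 of the 10 at 4 h, where 13.2% of all genes did so, for 10 at 8 h (23.8%) and for 10 at 24 h (30.4%). Their median log2 fold change was 1.20 at 4 h, 2.64 at 8 h and 3.11 at 24 h, beside 0.01, 0.02 and 0.01 over all genes. Without background correction that median was 0.41, 1.12 and 1.91, and the authors' deposited table gave medians of 0.21, 0.58 and 1.23. In either direction 11.9%, 32% and 54% of all genes were called at an adjusted p under 0.05 at 4 h, 8 h and 24 h. Since the genes were chosen for these rises, nothing is read from the counts. All 3 comparisons share the DMSO arrays. The time of the rise was part of the choice too. The course of each gene, which differed widely within the set, is therefore likewise only described. The means of FZD2, EFNA1, ZNF467 and MYBPHL were highest at 8 h, and those of the other 6 at 24 h. Levels below are normalized log2 intensities. Fold changes compare means of 3 arrays, with the standard error (SE) that limma estimated from the spread pooled over all 12 arrays.

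**Figure D1:**
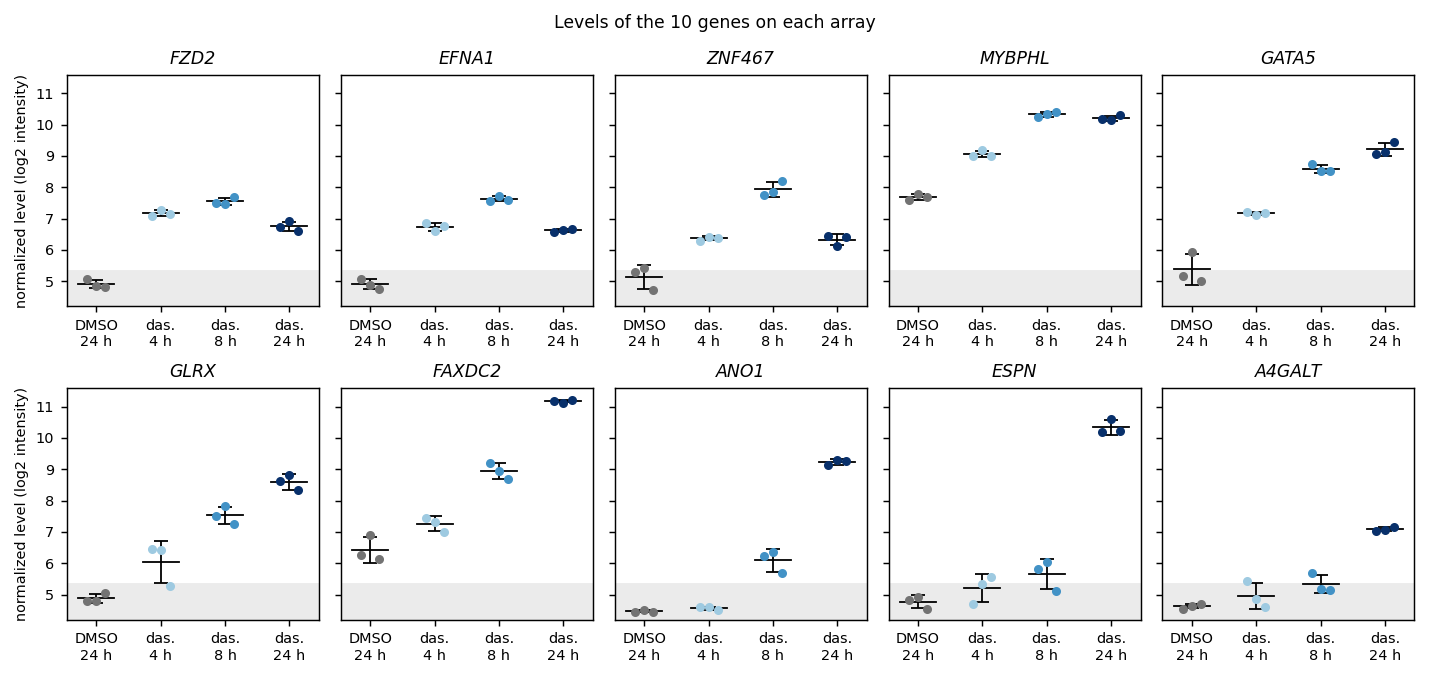
Normalized log2 intensity of each of the 10 genes (vertical axis) in DMSO and after dasatinib for 4 h, 8 h and 24 h (horizontal axis), with 1 point per array and a bar at each group mean. FZD2, EFNA1 and ZNF467 are highest at 8 h, MYBPHL is level between 8 h and 24 h, and ESPN is far above its other groups at 24 h.

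FZD2, EFNA1 and ZNF467, a receptor, a ligand and a transcription factor, were high early and lower again at 24 h. FZD2 read 5.07, 4.86 and 4.83 in DMSO, 7.10, 7.27 and 7.15 at 4 h, 7.51, 7.47 and 7.69 at 8 h, and 6.73, 6.92 and 6.62 at 24 h. No dasatinib array overlapped DMSO, where the probe was detected on none of the arrays, and every 24 h array lay below every 8 h array. FZD2 was therefore at least 3.83-fold higher at 4 h, 4.99-fold at 8 h and 2.87-fold at 24 h, bounds taken against the lowest detected value of each DMSO array. Its fitted log2 fold changes were 2.25, 2.64 and 1.84 (SE 0.11). Bounds and fitted values both depend on how the background is treated, and the authors' deposited table gave log2 differences of 0.43, 0.57 and 0.31. The level at 24 h was 0.575 times that at 8 h.

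EFNA1 followed a course close to that of FZD2. Its levels were 5.07, 4.88 and 4.75 in DMSO, where it was not detected, 6.85, 6.60 and 6.76 at 4 h, 7.57, 7.73 and 7.60 at 8 h, and 6.57, 6.63 and 6.68 at 24 h. Each dasatinib array was above each DMSO array, and the 24 h arrays were again all below those of 8 h, by a mean log2 difference of -1.01. The bounds were at least 2.83-fold higher at 4 h, 5.26-fold at 8 h and 2.62-fold at 24 h, and the fitted log2 changes were 1.84, 2.73 and 1.72 (SE 0.11), beside 0.31, 0.60 and 0.28 in the authors' deposited table. The second EFNA1 probe, which did not pass detection, gave 0.19, 0.33 and 0.26.

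ZNF467 was the third of this kind and was lower at 24 h than at 8 h by a log2 difference of -1.60. It read 5.30, 5.42 and 4.71 in DMSO, with 2 of 3 arrays detected, 6.30, 6.43 and 6.39 at 4 h, 7.75, 7.86 and 8.19 at 8 h, and 6.46, 6.14 and 6.40 at 24 h. The 4 h and 24 h arrays overlapped each other and lay between DMSO and 8 h. Relative to DMSO it was 2.35-fold higher at 4 h, 6.92-fold at 8 h and 2.28-fold at 24 h (log2 fold changes 1.23, 2.79 and 1.19, SE 0.18), and the authors' deposited table gave log2 differences of 0.20, 0.70 and 0.19.

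MYBPHL, GATA5 and GLRX stood clear of DMSO by 8 h, and at 24 h they held that level or lay above it. MYBPHL, the muscle-type protein, was detected on all 12 arrays at 7.59, 7.79 and 7.69 in DMSO, 9.01, 9.18 and 8.99 at 4 h, 10.25, 10.33 and 10.41 at 8 h, and 10.17, 10.14 and 10.30 at 24 h. It was 2.58-fold higher at 4 h, 6.22-fold at 8 h and 5.70-fold at 24 h (log2 fold changes 1.37, 2.64 and 2.51, SE 0.10). The 24 h arrays overlapped those of 8 h, with 2 of 3 below all of them, so MYBPHL showed a plateau where the preceding 3 genes came down.

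GATA5, the transcription factor, went on upward after 8 h by a small step. Levels were 5.18, 5.95 and 5.01 in DMSO, with 1 of 3 arrays detected, 7.20, 7.13 and 7.17 at 4 h, 8.73, 8.51 and 8.53 at 8 h, and 9.06, 9.12 and 9.45 at 24 h. The groups did not overlap at any step. GATA5 was 3.45-fold higher at 4 h, 9.25-fold at 8 h and 14.2-fold at 24 h (log2 fold changes 1.79, 3.21 and 3.83, SE 0.20). These sizes rest on a DMSO level at the edge of detection, and the authors' deposited table gave log2 differences of 0.37, 1.00 and 1.39. DMSO array B stood above the other DMSO arrays in this dim range and was the one detected.

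GLRX, the thiol enzyme, was not detected in DMSO, at 4.81, 4.80 and 5.04. It read 6.45, 6.42 and 5.26 at 4 h, 7.51, 7.82 and 7.25 at 8 h, and 8.62, 8.82 and 8.33 at 24 h. Array C at 4 h was undetected and stood apart from A and B, and the 4 h log2 fold change of 1.16 (SE 0.27) ranged from 0.95 to 1.57 when each array was left out in turn. GLRX was at least 4.90-fold higher at 8 h and 10.2-fold at 24 h. The 4 h figure, 1.75-fold, is no firm bound, since array C was undetected. The authors' deposited table gave log2 differences of 0.18, 0.57 and 1.07.

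**Figure D2:**
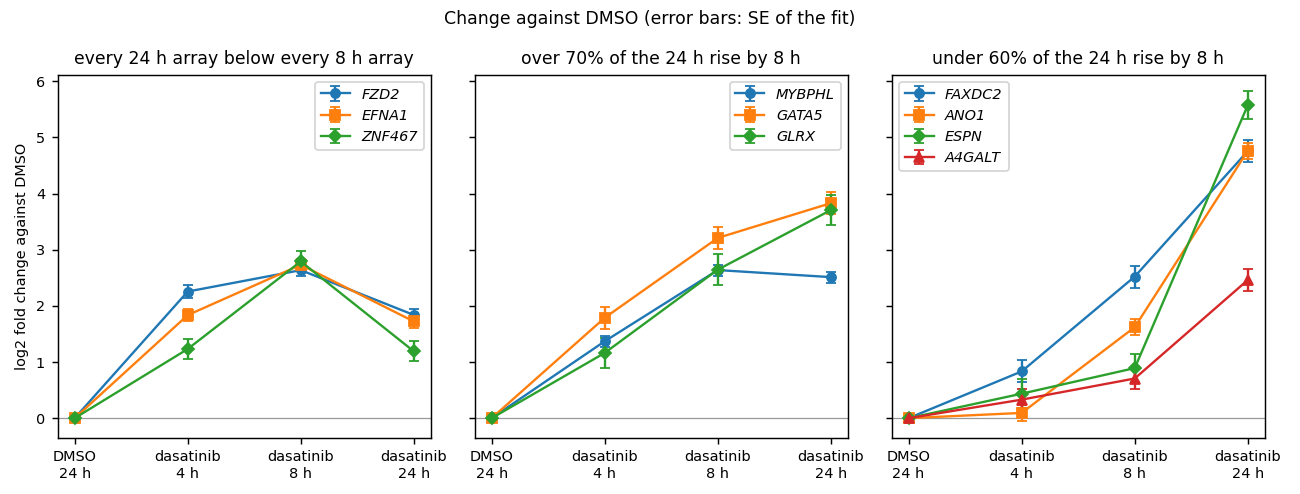
Log2 fold change against DMSO (vertical axis) of the 10 genes at DMSO, 4 h, 8 h and 24 h (horizontal axis), in panels by course. Bars are the SE of the fit, from the spread pooled over all 12 arrays. The panels were set after the values were seen. FZD2 reaches 2.25 at 4 h while ANO1 is at 0.09, and at 24 h ESPN is at 5.57 while ZNF467 is at 1.19. Sizes for genes undetected in DMSO depend on the background treatment.

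FAXDC2, ANO1, ESPN and A4GALT were far higher at 24 h than at 8 h. FAXDC2, of the hydroxylase family, was detected on all 12 arrays, at 6.25, 6.89 and 6.13 in DMSO, 7.46, 7.32 and 6.99 at 4 h, 9.20, 8.94 and 8.69 at 8 h, and 11.19, 11.13 and 11.22 at 24 h. Its groups did not overlap at any step, and it was 1.78-fold higher at 4 h, 5.74-fold at 8 h and 27.0-fold at 24 h (log2 fold changes 0.83, 2.52 and 4.76, SE 0.19), beside log2 differences of 0.22, 1.04 and 2.88 in the authors' deposited table. A second FAXDC2 probe, dim and undetected in DMSO and at 4 h, gave 0.12, 0.57 and 2.51, the same order with smaller sizes. The rise of FAXDC2 was number 132 of all genes at 4 h and number 8 at 24 h.

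ANO1, the chloride channel, stayed at background through 4 h. It read 4.46, 4.51 and 4.44 in DMSO and 4.59, 4.59 and 4.51 at 4 h, undetected on all 6 of these arrays, then 6.24, 6.35 and 5.68 at 8 h and 9.14, 9.31 and 9.25 at 24 h. ANO1 was at least 1.81-fold higher at 8 h and at least 15.95-fold higher at 24 h, with fitted log2 changes of 1.62 and 4.76 (SE 0.15), beside 0.27 and 1.57 in the authors' deposited table. In the same fit 2 further ANO1 probes gave 0.63 and 0.84 at 8 h and 3.28 and 3.17 at 24 h.

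ESPN, the actin bundler, had the latest and steepest course of the 10. Its levels were 4.84, 4.93 and 4.55 in DMSO, 4.71, 5.35 and 5.57 at 4 h, 5.82, 6.05 and 5.13 at 8 h, and 10.20, 10.62 and 10.22 at 24 h. The 4 h arrays overlapped DMSO, detection was 0 of 3 in DMSO and 2 of 3 at 4 h and at 8 h, and the 8 h and 24 h arrays were far apart. In deposited signal units, before any correction, the 24 h arrays read 1100, 1712 and 1297, against 133, 145 and 135 in DMSO. ESPN was at least 34.5-fold higher at 24 h. The 8 h figure, 1.35-fold, is no firm bound, since array C was undetected there. Both figures and the fitted log2 change at 24 h, 5.57 (SE 0.25), depend on the background treatment. The authors' deposited table gave a log2 difference of 2.38 at 24 h. ESPN has near-identical copies elsewhere in the genome, and whether its probe also reads them was not tested.

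A4GALT, the glycolipid enzyme, had the lowest rise of the late genes. It was undetected in DMSO at 4.55, 4.65 and 4.70, and read 5.42, 4.85 and 4.62 at 4 h, 5.68, 5.17 and 5.16 at 8 h, and 7.04, 7.07 and 7.17 at 24 h. At 4 h and at 8 h only array A was detected, the 4 h arrays overlapped DMSO, and all 3 arrays at 24 h were detected and above the rest. A4GALT was at least 3.62-fold higher at 24 h. The 8 h figure, 1.07-fold, is no firm bound, since arrays B and C were undetected there. Its fitted log2 changes at 8 h and 24 h were 0.71 and 2.46 (SE 0.19), beside 0.11 and 0.46 in the authors' deposited table.

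**Figure D3:**
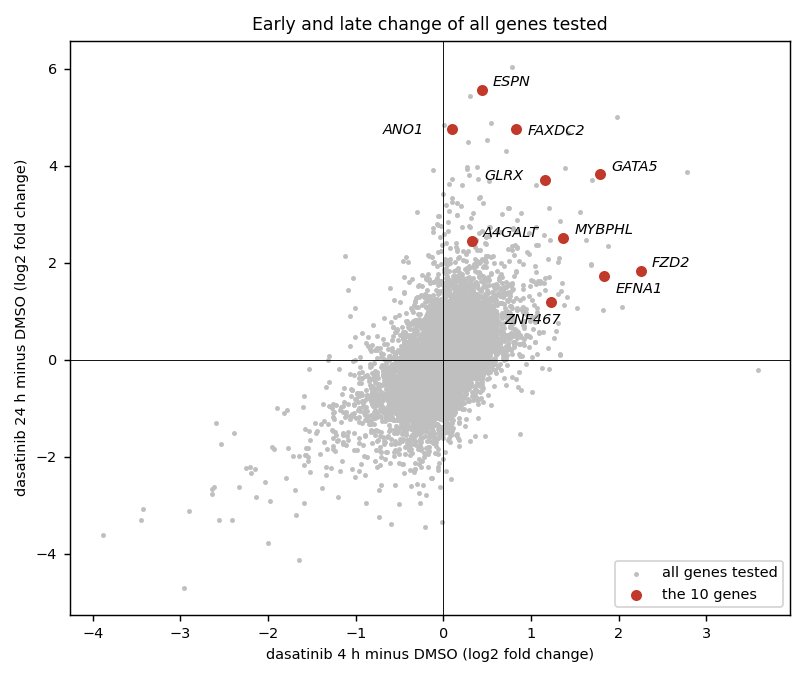
Log2 fold change against DMSO at 4 h (horizontal axis) and at 24 h (vertical axis) for all 10208 genes tested (grey) and the 10 genes (red, named). FZD2 and EFNA1 lie far to the right at 4 h, and ESPN, ANO1 and FAXDC2 lie at the top at 24 h. Both axes use the same DMSO arrays, and sizes for genes undetected in DMSO depend on the background treatment.

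The genes with the most similar courses differed between the early and the late members. Likeness was measured as the root mean square difference over the 12 arrays between log2 levels centred on the DMSO mean. For FZD2 the nearest of all genes was EFNA1 at 0.261, then MYBPHL at 0.573 and ZNF446 at 0.614. For EFNA1 the nearest were FZD2 at 0.261, ZNF467 at 0.447 and MYBPHL at 0.482, all among the 10. GATA5 had no close match, with GLRX at 0.607, TF (transferrin) at 0.610 and MXD3 at 0.613. The nearest genes to ANO1 and ESPN were of the red cell membrane. ANO1 was nearest to EPB42 (a red cell membrane protein) at 0.175, whose log2 fold changes were 0.01 at 4 h, 1.46 at 8 h and 4.83 at 24 h. CYP3A5 at 0.346 and COL18A1 at 0.359 followed. ESPN was nearest to SLC4A1 (band 3, the red cell anion exchanger) at 0.442, with EPB42 at 0.586 and ANO1 at 0.614. SLC4A1 had log2 fold changes of 0.30, 0.34 and 5.44, as late as those of ESPN. The other late genes were looked up after their values were seen. FAXDC2 was nearest to TF at 0.370, ASCL2 at 0.430 and ALAS2 at 0.445. A4GALT was nearest to SCPEP1 at 0.248, ALPL at 0.255 and HBE1 at 0.270. All these values are from the same 12 arrays, and the measure reflects the size of a change as well as its course. The 10 genes were chosen for large rises, some early and some late. A difference between early and late members therefore follows from the choice, and nothing is read from it.

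Genes related to the 10 by family or pathway were tested in the fit over all genes, with calls at a Benjamini-Hochberg adjusted p under 0.05 in limma. Of 188 such genes 90 could be tested. At 24 h 27 of them were higher (30%) and 26 lower (28.9%), where 26.9% of all genes were called higher and 27.1% lower. At 8 h 24 were higher (26.7%) and 14 lower (15.6%), where 16.6% and 15.4% of all genes were. At 4 h 10 were higher (11.1%) and 12 lower (13.3%), where 5.29% and 6.65% of all genes were. The count of 10 fell to 6 without DMSO array A, 5 without DMSO array C, 6 without array B of the 4 h group and 5 without its array C. The median log2 fold change of the related genes at 24 h was -0.01, beside 0.01 over all genes.

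Among the relatives of the cell surface pair, 19 Frizzled and Wnt pathway genes were tested. At 24 h 1 was higher (5.26%) and 5 were lower (26.3%), where 26.9% of all genes were called higher and 27.1% lower. The median log2 fold change of the list was -0.15. FZD9, another Wnt receptor, fell to a log2 fold change of -1.66 (SE 0.14, adjusted p = 9.7e-07), opposite to FZD2. NKD2, an inhibitor of Wnt signalling, was undetected under dasatinib and at least 1.75-fold lower at 4 h (adjusted p = 0.00034) and 1.86-fold lower at 24 h (adjusted p = 5.6e-06). ZNRF3, a ligase that removes Frizzled receptors, was at least 1.70-fold lower at 24 h (adjusted p = 4.7e-05). WNT5B and GSK3B, with -1.05 and -0.78, were the other falls and ROR2, with 0.65, the only rise, these 3 being named after their values were seen. FZD7, the co-receptor LRP6, DVL2 and LEF1 had log2 fold changes of -0.11, -0.01, -0.16 and -0.30 at 24 h and did not pass, with a second probe at 0.48 for FZD7 and at -0.60 for LEF1. FZD1 was 0.53 at 4 h (adjusted p = 0.045), a call lost with the replicate block and on leaving out any array other than 4 h A and 8 h A (adjusted p up to 0.16). FZD4, also named after its values were seen, was called at 4 h and 8 h (0.74 and 0.76, adjusted p = 0.0021 and 0.00063) and not at 24 h (0.30, adjusted p = 0.061). In all, 2 of the 19 were higher at 4 h (10.5%) and 5 lower (26.3%), where 5.29% and 6.65% of all genes were. Beside NKD2, the falls at 4 h were AXIN1 at -0.68, ZNRF3 at -0.65, RYK at -0.59 and LRP5 at -0.48. AXIN1, RYK and LRP5 were named after their values were seen. The 5 became 3 without DMSO array C or 4 h array A or C.

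Ephrins and Eph receptors were mostly not measurable in these cells, with 5 of 21 tested. EPHB4, a receptor of B-type ephrins, was the only one called at 24 h, at 0.28 (SE 0.10, adjusted p = 0.029). Removing DMSO array A or B, or 24 h array A or B, ended the call, with an adjusted p of up to 0.11. EFNA4, the only other A-type ephrin tested, had log2 fold changes of 0.39, 0.79 and -0.15. Its 8 h value passed (adjusted p = 0.019) with all arrays, and no longer without DMSO array A or 8 h array B or C (adjusted p up to 0.079). A second EFNA4 probe gave 0.84 at 8 h and -0.77 at 24 h.

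GATA5 moved apart from the GATA factors that blood cells normally use. GATA2, the factor of blood progenitors, fell to a log2 fold change of -1.98 at 4 h, -1.95 at 8 h and -2.91 at 24 h (SE 0.19, adjusted p = 3.1e-05, 1.4e-05 and 1.3e-07). GATA1, the erythroid factor, was at -0.16, 0.06 and 0.29 and did not pass at any time (adjusted p = 0.051 at 24 h). ZFPM1 (FOG1), the cofactor of GATA1, rose by 1.03 at 8 h and 2.03 at 24 h (SE 0.14, adjusted p = 0.00019 and 2.4e-07). ZFPM2 stood at 0.10 at 24 h and did not pass. Of these 4 genes 1 was called higher at 24 h with all arrays. With the replicate block, or without DMSO array B, 4 h array B or 24 h array C, 2 of the 4 were, so the missing call of GATA1 is a borderline one. Around ZNF467, 3 of 9 genes for fat and bone cell commitment were tested. CEBPB, a transcription factor of fat and myeloid cells, rose early by 1.31 at 4 h (SE 0.09, adjusted p = 3.8e-06) and was 0.42 at 8 h and 0.76 at 24 h. STAT3 fell by 0.62, 0.86 and 0.48 on the log2 scale (SE 0.13), and CEBPD was at -0.40 at 24 h and did not pass.

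For the cytoskeletal and muscle members the related genes split. Of 10 actin bundling and protrusion genes tested 3 were higher (30%) and 3 lower (30%) at 24 h, where 26.9% and 27.1% of all genes were. ESPNL, the closest relative of ESPN by name and structure, rose by 1.27 at 8 h and 1.36 at 24 h (SE 0.19, adjusted p = 0.00035 and 7.1e-05). VILL, a villin-like protein, was undetected in DMSO and at least 1.42-fold higher at 24 h (adjusted p = 0.00015). ACTN4, an actin cross-linker, fell by 1.08 (SE 0.14, adjusted p = 4.8e-05) and LCP1, the plastin of blood cells, by 0.89 (SE 0.24, adjusted p = 0.0077), while FSCN1 was at 0.20 and did not pass. WHRN at 0.61 and EPS8L1 at -0.57, named after their values were seen, rested on few arrays. WHRN was no longer called with the replicate block or without DMSO A or C, 4 h C, 8 h C or 24 h B or C (adjusted p up to 0.18). EPS8L1 was no longer called without DMSO B or C or 24 h A or C (adjusted p up to 0.10). All 3 sarcomere genes tested of 14 rose at 24 h, a small group from which little can be read. These were MYL4, an embryonic and atrial myosin light chain, at 2.02 (SE 0.10, adjusted p = 1.4e-08), TNNI3 (cardiac troponin I) at 1.65 (SE 0.14, adjusted p = 1.2e-06) and TNNT1 (slow skeletal troponin T) at 0.98 (SE 0.12, adjusted p = 2.6e-05).

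Of 16 chloride channel genes tested beside ANO1, 7 were higher (43.8%) and 6 lower (37.5%) at 24 h, where 26.9% and 27.1% of all genes were. CLIC3, an intracellular chloride channel protein, had a late course like that of ANO1, at 0.27, 1.61 and 3.94 (SE 0.10), and was at least 1.87-fold higher at 8 h and 9.39-fold at 24 h (adjusted p = 3.3e-07 and 6.4e-11). Of the anoctamins, ANO9 rose by 1.33 (SE 0.18, adjusted p = 6.7e-05), with other probes at 0.31 and 1.44, and ANO10 by 0.94 (SE 0.10, adjusted p = 5.8e-06). ANO6, the scramblase of blood cells, stood at -0.27 and did not pass. CLCN3, an endosomal exchanger, rose by 1.09 (SE 0.12, adjusted p = 9.8e-06). The 6 falls at 24 h, named after their values were seen, included CLIC1 at -0.87 (SE 0.10, adjusted p = 1.2e-05). The others were LRRC8A at -0.79, CLCN5 at -0.74, LRRC8B at -0.73, CLCN6 at -0.64 and LRRC8E at -0.61. CLCN5 was no longer called without DMSO array C or 24 h array B or C (adjusted p up to 0.093).

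**Figure D4:**
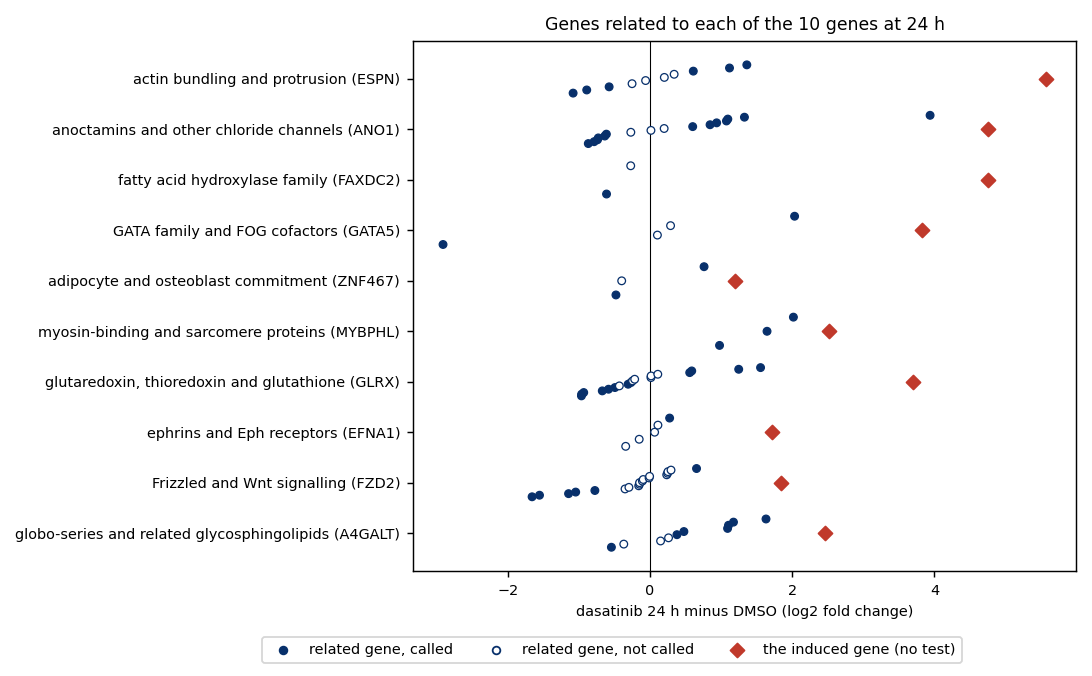
Log2 fold change at 24 h of dasatinib against DMSO (horizontal axis) for the genes of each related list (rows, with the gene they relate to in brackets). Filled points passed the test and open points did not, and the diamond is the induced gene itself, shown without a test. The diamonds lie to the right of most of their lists, with CLIC3 at 3.94 and GATA2 at -2.91 the widest of the related genes shown.

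The enzymes among the 10 had relatives that moved both ways. At 24 h 26.9% of all genes were called higher and 27.1% lower. In the glutaredoxin, thioredoxin and glutathione list 4 of 18 were higher (22.2%) and 8 lower (44.4%), with a median log2 fold change of -0.26. The 8 became 6 without DMSO array C or 24 h array B. GLRX3 fell by 0.96 (SE 0.10, adjusted p = 8.9e-06), GLRX2 by 0.58 (SE 0.11, adjusted p = 0.00093) and the thioredoxin reductase TXNRD1 by 0.93 (SE 0.10, adjusted p = 1.1e-05), and GLRX5 was at 0.11 and did not pass. TXN itself was at -0.31 (adjusted p = 0.022), a call lost without DMSO array C or 24 h array A or B (adjusted p up to 0.077). The rises were TXNIP, the inhibitor of thioredoxin, at 1.55 (SE 0.12, adjusted p = 6.6e-07), GCLC, which catalyses the first step of glutathione synthesis, at 1.25 (SE 0.13, adjusted p = 7e-06), and, named after their values were seen, TXNRD2 at 0.59 and GPX4 at 0.56. In the glycosphingolipid list around A4GALT 6 of 10 were higher (60%) and 1 lower (10%) at 24 h, with a median of 0.43. The lower one was GLA, named after its value was seen. The 6 became 5 without DMSO array A, B or C, 4 h array B or C, or 24 h array B. They became 4 without 24 h array C. The calls lost were those of GM2A and ST3GAL2. GBGT1, another gene of this list, rose by 0.74 at 8 h and 1.63 at 24 h (SE 0.12, adjusted p = 0.00047 and 2.9e-07). PSAP and GLB1, lysosomal proteins of glycolipid breakdown, rose by 1.17 and 1.10 at 24 h (adjusted p = 9.6e-07 and 1.2e-06), while UGCG and B4GALT5, which make the precursors of A4GALT's product, were at 0.26 and 0.15 and did not pass. GLA, the enzyme that breaks down the product of A4GALT, fell by 0.54 (SE 0.09, adjusted p = 0.00021). Beside FAXDC2, 2 of 5 genes of its family were tested. MSMO1, a sterol methyl oxidase, was lower at 24 h by 0.61 (SE 0.14, adjusted p = 0.0023), with other probes at 0.03 and -1.17, and SC5D was at -0.27 and did not pass.

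Genes lying next to the 10 on the chromosome moved both ways. Of the 40 protein-coding neighbours, 2 on each side, 22 were tested. At 24 h 8 were higher (36.4%) and 4 lower (18.2%), where 26.9% and 27.1% of all genes were. At 8 h 8 were higher (36.4%) and 3 lower (13.6%), where 16.6% and 15.4% of all genes were, and without DMSO array A these 8 and 3 became 5 and 2. At 4 h 1, ZNF746, was higher, a call lost with the replicate block and without any array other than 4 h A (adjusted p up to 0.13), and GEMIN5 was lower. CABLES2 near GATA5 was undetected in DMSO and at 4 h, and at least 2.29-fold higher at 8 h (adjusted p = 3e-07) and 5.25-fold at 24 h (adjusted p = 9.4e-10). On the other side of GATA5, SLCO4A1, an organic anion transporter, fell by 1.42 at 24 h (SE 0.19, adjusted p = 4.1e-05). ELL2, an elongation factor next to GLRX, rose by 1.65 (SE 0.18, adjusted p = 1e-05), CELSR2 near MYBPHL by 1.32 (SE 0.13, adjusted p = 3.9e-06) and ATP6V0E2 near ZNF467 by 1.03 (SE 0.11, adjusted p = 6.9e-06). GEMIN5 near FAXDC2 fell by 1.46 (SE 0.16, adjusted p = 1e-05), and ACOT7 near ESPN by 0.65 (SE 0.14, adjusted p = 0.0019). Near the early genes, DPM3 close to EFNA1 rose by 0.53 (SE 0.12, adjusted p = 0.0031). SLC50A1 beside EFNA1 was at -0.29, and GPATCH8 and CCDC43 beside FZD2 were at 0.52 and -0.05, and these did not pass.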

How the data were processed

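Total RNA of 12 K562 samples was measured on Illumina BeadChips. Per the file headers, the deposited probe signals are intensities, neither background-corrected nor normalized, each with a detection p-value set against negative controls. Columns were assigned to groups by their names, with BMS read as dasatinib. The authors' deposited value table is on a log2 scale with the same median, 7.84, in every column; nothing used here states its method, and it served as an alternative.

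Signals were corrected and quantile-normalized with neqc of limma 3.58.1 (R 4.3.3, statmod 1.5.0; offset 16, control moments inferred from detection p-values). Of 47314 probes 30108 named 1 gene by the platform annotation. Probes detected (p under 0.05) in all 3 replicates of some group were kept, with the brightest probe per gene, giving 10208 genes. A mean per group was fitted over 12 arrays (8 residual degrees of freedom), with two-sided p-values adjusted over all genes by Benjamini-Hochberg. The fit was tested on simulated data. Bounds raise undetected values of the lower group to the lowest detected value of their array. Undetected values of the higher group were kept as they are, so a figure that includes them is no firm bound. Bounds use background-corrected levels and depend on that correction. The number of arrays limits the precision.

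The members and lists were chosen with earlier results of these data known. Named relatives are the 3 largest called changes per list at 24 h and genes set by name; not all are described. Alternatives were no background correction, an offset of 50, the authors' table, other detection filters, the mean of probes, fits of 2 groups, the replicate block and leaving out arrays.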

Additional observations from a re-analysis of the deposited data

Results flagged for a closer look

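GCLM, the modifier subunit of the enzyme whose catalytic subunit is GCLC, was above DMSO at 4 h and below it at 24 h. Its log2 fold change was 0.42 at 4 h and -0.67 at 24 h, a difference of -1.09 (24 h minus 4 h, limma, adjusted p = 6.09e-06), and both comparisons use the same DMSO arrays. The call at 4 h (adjusted p = 0.023) ended on removing DMSO array A or C, or 4 h array A or C, with an adjusted p of up to 0.081. A second GCLM probe gave 0.04 at 4 h and -0.57 at 24 h.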

How the results depend on the processing

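Sizes of the members' changes depended on the background treatment. Their direction stayed upward, but the genes were chosen for rises in these arrays, so nothing is read from that. At 4 h 2 further ANO1 probes, undetected there as was the probe used, gave 0.23 and -0.04. All 30 member values (10 genes at 3 times) were above 0 without background correction, with an offset of 50, in the authors' deposited table, without the detection filter, with the mean of all passing probes, with 2 groups fitted at a time and with the replicate block, as were all 360 values on leaving out each array. Without background correction 1 member was at least 2-fold higher at 4 h and 6 at 24 h, and the medians were 0.41, 1.12 and 1.91 at 4 h, 8 h and 24 h. An offset of 50 gave medians of 0.71, 1.83 and 2.53. The authors' deposited table gave 0, 2 and 6 members at least 2-fold higher and medians of 0.21, 0.58 and 1.23. Requiring detection on all 12 arrays left only MYBPHL and FAXDC2, with 1, 2 and 2 at least 2-fold higher and medians of 2.58 at 8 h and 3.63 at 24 h. The mean of all passing probes gave a median of 3.07 at 24 h. With no detection filter 6 related genes were higher at 4 h. Leaving out each array gave 5 to 9 related genes higher at 4 h, member medians of 2.56 to 2.65 at 8 h and 3.06 to 3.12 at 24 h, and 808 to 1168 genes called at 4 h, the lowest without DMSO array C, beside 1219 with all arrays. Array letters were not taken to pair the samples, since deviations from group means correlated at -0.08 to 0.19 within a letter (-0.21 to 0.12 between letters) and 4 of 18 pairs were over 0.1, although 10 of 12 arrays had their best mean correlation with their own letter and 7 of 12 their best single one, a hint from the data alone. The replicate block gave 1245, 3347 and 5606 called genes at 4 h, 8 h and 24 h, beside 1219, 3265 and 5511. The cause of these shifts was not tested. Signal over background limits the 6 members undetected in DMSO. Their bounds use background-corrected levels, so the bounds too depend on that treatment. It also limits GATA5 and ZNF467, whose DMSO level was undetected on 2 and 1 of 3 arrays.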
